A study of Rattus norvegicus with 12 samples.

Results

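The genes whose response to tungstate depended on diabetes were sought in the whole pancreas of adult male Wistar rats. RNA was hybridized to 12 Affymetrix RAE230-A arrays, 3 in each of 4 groups. Healthy rats were left untreated (HU) or given tungstate (HT), and so were diabetic rats (DU without and DT with tungstate). All 12 arrays of the series were used. Diabetes had been induced in the DU and DT animals by an intraperitoneal injection of streptozotocin, a toxin that is taken up by beta cells and destroys them, and the HU and HT animals had not received it. The HT and DT animals drank sodium tungstate, and the labels give 0.7 g/L in the opening week and 2 g/L in the 4 to 5 weeks that followed, until glycaemia in the DT animals was, by the labels, close to normal. The study's methods name the higher concentration alone, for the whole treatment, and its discussion describes glycaemia as partially restored. Each array held RNA pooled from 3 rats, so that p-values here rest on how pools, not single rats, varied. By the study's methods the diabetic rats took in more tungstate per day than the healthy rats, so that diabetes and the dose taken in cannot be told apart in the comparison below. The whole organ was extracted, islets and exocrine tissue together.

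The comparison was the interaction, that is the tungstate response of the diabetic rats (DT minus DU) less that of the healthy rats (HT minus HU). All levels are log2 intensities, on which a difference of 1 is a 2-fold difference, and a higher interaction means that the gene rose more, or fell less, under tungstate in diabetic than in healthy rats. Probe sets were called where limma's Benjamini-Hochberg adjusted p, over all 15866 probe sets tested, was below 0.05. Of these, 67 were called (0.422%), 43 with a higher interaction (0.271%) and 24 with a lower interaction (0.151%). By the study's own criterion, a B-statistic above 0, 92 were called (0.58%). Exactly 1 gene symbol stood beside 59 of the 67 probe sets, each a different gene, which made 37 genes with a higher interaction (0.355% of the 10411 genes tested) and 22 with a lower interaction (0.211%). The other 8 called probe sets were 4 with several symbols, with interactions from 0.64 to 3.40, and 4 with none, with interactions from -3.48 to 1.38. The median size of the 67 interactions was 2.14-fold.

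The pancreas is mostly acinar tissue, which makes digestive enzymes and exports them through a large endoplasmic reticulum (ER). Acinar amylase is known to depend on insulin. The ER keeps its folding capacity through the unfolded protein response, in which the transcription factor Xbp1 switches on chaperones and the machinery that removes misfolded proteins. Fatty acids are burnt by beta-oxidation in mitochondria and peroxisomes, a set of enzymes that the nuclear receptor PPAR alpha switches on when fatty acids are plentiful, as they are when insulin is lacking. These are background facts and not results of the arrays.

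In 65 of the 67 called probe sets the response to tungstate was larger in size in the diabetic than in the healthy rats. Of the 67 probe sets, 64 also passed the same threshold in DT vs. DU, in which 177 of all probe sets did (1.12%), and 1 passed it in HT vs. HU, the only such probe set of all (0.0063%). These contrasts share every array with the interaction and are given as its 2 components, not as further support. The response of the diabetic rats ranged from -4.97 to 5.01 and that of the healthy rats from -1.69 to 0.30 with a median of -0.07. The DT and DU arrays overlapped in 2 of the 67 probe sets and the HT and HU arrays in 51. In HT vs. HU, 12 of the 67 had an unadjusted p under 0.05, and the size of the response was over 0.5 in 3. The overlap and unadjusted counts were made in the 67 called probe sets only, which were chosen for a difference between the 2 responses. Shares over all probe sets are not given, so that these counts do not measure how small the healthy response was.

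**Figure D1:**
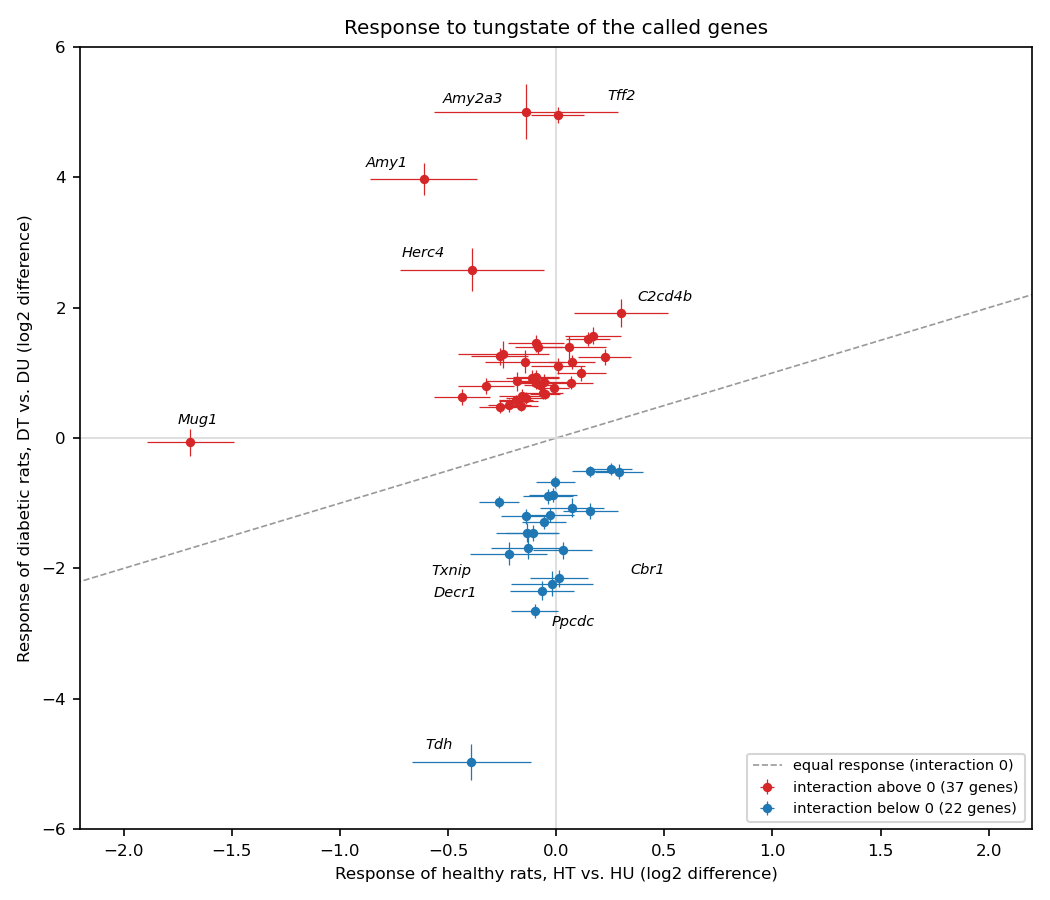
Response of the diabetic rats (DT vs. DU, y axis) against that of the healthy rats (HT vs. HU, x axis), both as log2 differences, for the 59 called genes. Bars are standard errors from limma and the dashed line marks equal responses, the 2 axes having different scales. Most genes lie close to 0 on the x axis, from -4.97 (Tdh) to 5.01 (Amy2a3) on the y axis, and Mug1 lies at -1.69 on the x axis.

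The group that stood apart from the other 3 was the DU group in 38 of the 59 genes, the DT group in 15 and the HU group in 1, whereas 5 were mixed. A group was said to stand apart where its mean lay farther from the nearest other mean than the other 3 means lay from each other. In all 22 genes with a lower interaction the 3 DU arrays were above the other 9, and 21 of them had the DU group apart. In 24 of the 37 genes with a higher interaction the DU arrays were below the other 9, and in 22 the DT arrays were above the other 9. These counts describe the called genes only, which were chosen on the same arrays, and shares over all genes are not given.

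Scanning took place on 6 days, with chips of 3 lots. The DU arrays were scanned on days 1, 2 and 6, the DT arrays on days 1 and 5. For HU the days were 3 and 4, for HT 3 and 5. No DU array shared a scan day with a healthy array, so that their levels were not compared within any day. The part of the scan day in the DU group standing apart was not tested. DT1, DT2 and DU1 were scanned on 1 day and HT1, HT2 and HU3 on another, and within these days the interaction of the 59 genes kept its sign and was 0.592 to 1.37 times that over all arrays. Within chip lots, from DT1, DT2, DU1 and DU2 in lot 1 and HT1, HT2, HU1 and HU2 in lot 2, the interaction also kept its sign and was 0.783 to 1.41 times that over all arrays. The genes were chosen on these same arrays, so that the kept signs are no further support. Values within scan days rest on DU1 and HU3 as the only untreated arrays. They are the same estimates as those with blocking by scan day, not a separate check. With blocking by scan day in the model the count of called probe sets fell to 37, of which 24 were among the 67, and with blocking by chip lot it was 64, with 52 shared. Blocking by scan day left 3 residual degrees of freedom and by chip lot 6, beside 8 without a block, which lowers the precision. A call lost with a block therefore does not show that the interaction depended on it, and the reason for the loss was not tested. The count was 32 without HU1, 35 without DU1, 36 without HT1, 38 without HT2, 42 without each of DU2, HT3 and HU3, 45 without HU2, 54 without DU3, 57 without DT1, 58 without DT2 and 89 without DT3. Among the 59 genes, 29 kept their call whichever array was left out, 22 with blocking by scan day, 48 with the chip lot, and 16 under all 20 alternatives. These are the fits that kept the threshold of 0.05, namely other scaling or filtering of the values, limma with trend and robust, the 3 blocks, each array left out and chip lot 3 left out. The sign was the same under every alternative for all 67, of which 63 were tested where dim probe sets were left out. Calls lost without 1 array or with blocking by scan day are given with each gene below, and those lost in the other fits for some genes only.

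**Figure D2:**
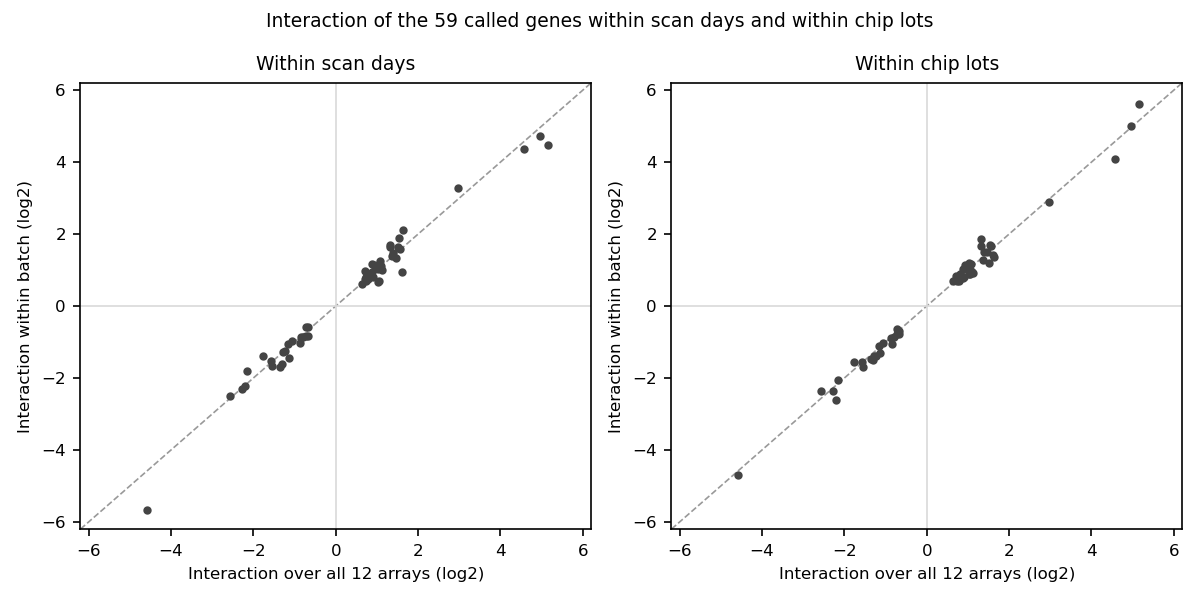
Interaction (log2) of the 59 called genes within scan days (left) and within chip lots (right), on the y axis, against the interaction over all 12 arrays on the x axis. Each point is 1 gene and the dashed line marks equal values. The y values come from part of the same 12 arrays and are not independent of the x values. All points lie in the lower left or upper right part, and the ratio of the y to the x value runs from 0.592 to 1.37 (left) and from 0.783 to 1.41 (right).

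The 3 highest interactions among the named genes were those of Tff2, Amy2a3 and Amy1. Tff2, a secreted trefoil peptide that protects mucosal surfaces, read 13.36, 13.41 and 13.44 (HU), 13.36, 13.47 and 13.41 (HT), 8.32, 7.70 and 8.12 (DU) and 13.09, 12.96 and 12.97 (DT). The 3 DU arrays lay far below the other 9, the DT arrays just below the healthy arrays, and the HU and HT arrays overlapped. Its interaction was 4.95 (SE 0.17, adjusted p = 3.71e-09), with a response of 4.96 in diabetic and 0.01 in healthy rats. Amy2a3, a pancreatic amylase that digests starch, read 13.20, 13.10 and 13.07 (HU), 13.02, 13.13 and 12.80 (HT), 8.59, 6.45 and 8.78 (DU) and 13.17, 12.98 and 12.70 (DT). Here too the DU arrays were the lowest, DU2 by over 2 units below the other DU arrays, and the DT arrays had returned among or just below the healthy arrays. The interaction of Amy2a3 was 5.15 (SE 0.60, adjusted p = 0.00107). Amy1, the amylase known from salivary gland and liver, read 10.36, 10.47 and 10.72 (HU), 10.27, 10.38 and 9.07 (HT), 4.45, 4.41 and 4.41 (DU) and 8.39, 8.44 and 8.35 (DT). In the DU arrays Amy1 was within 1 unit of the lowest level of any probe set on an array, 3.44 to 3.51, and the DT arrays regained part of the level, all 3 staying below the HU and HT arrays. Its interaction was 4.58 (SE 0.35, adjusted p = 2.01e-05), and HT3 was the lowest of the healthy arrays, with a response of -0.61 in the healthy rats (unadjusted p = 0.0267, adjusted p = 0.871). Amylase genes are near-identical copies, so that a probe set may take up signal from another copy. These 3 calls were kept under all 20 alternatives.

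Cuzd1, a protein of the zymogen granule membrane, was among the brightest called genes, at 13.66, 13.68 and 13.72 (HU), 13.64, 13.73 and 13.67 (HT), 13.17, 13.25 and 13.13 (DU) and 13.94, 13.93 and 13.96 (DT). In Cuzd1 the DU arrays were lowest, the DT arrays were highest and neither overlapped with the healthy arrays, whose means differed by -0.01. Its interaction was 0.77 (SE 0.10, adjusted p = 0.00175), and the call was lost with blocking by scan day (adjusted p = 0.123). Of 24 acinar digestive enzymes measured, 2 were called, the amylases (8.33%, beside 0.567% of all genes in either direction), and the median interaction of the list was 0.02 beside 0.005 over all genes. After the amylases the list's smallest p-values were those of Spink1, a trypsin inhibitor (-0.54, adjusted p = 0.493), and Klk1, tissue kallikrein (-0.35, adjusted p = 0.501). Of 23 acinar transcription factors and zymogen granule proteins, 2 were called, Tff2 and Cuzd1 (8.70%, beside 0.567%), with a median of 0.08. Mecom, a transcription factor, came next on that list with 0.64 (adjusted p = 0.192). The summed level of 9 acinar markers (proteases, lipases and their cofactor) lay between 17.3 and 17.4 in every array, on the log2 scale. All of them but Prss2 read 13.92 to 14.48, where the highest level on an array was 14.45 to 14.56, so that little room was left to see a difference. In whole tissue, fewer cells of a type and less RNA per cell cannot be told apart.

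Ang, angiogenin, a secreted ribonuclease that promotes vessel growth, read 11.47, 11.53 and 11.90 (HU), 11.38, 11.43 and 11.31 (HT), 10.17, 10.26 and 9.89 (DU) and 11.48, 11.14 and 11.48 (DT). The DU arrays lay below the other 9, the DT arrays overlapped with the HT arrays, and the HT arrays were all below the HU arrays, a difference of -0.26 in mean (unadjusted p = 0.0692). The interaction of Ang was 1.52 (SE 0.19, adjusted p = 0.00159) and its call was kept under all 20 alternatives. Rnase4, a related ribonuclease, had an interaction of 1.05 (SE 0.21, adjusted p = 0.0449), near the threshold, and its second probe set gave 1.00, with an unadjusted p of 0.00181 that did not pass the adjustment (0.191). Rnase4 lost its call without any 1 array but DT2 (adjusted p from 0.0611 to 0.144), with blocking by scan day (adjusted p = 0.528) and with the chip lot (0.0731). Both genes start from the same stretch of chromosome 15 in the RefSeq annotation of build GRCr8, 54 bases apart on the plus strand, and the 250 bases before the start of Ang share 196 bases with those before Rnase4. The window before Ang, chr15:26785983-26786232, is printed because both neighbours were called, with the complement of the letters CCACG in capitals.
Ang: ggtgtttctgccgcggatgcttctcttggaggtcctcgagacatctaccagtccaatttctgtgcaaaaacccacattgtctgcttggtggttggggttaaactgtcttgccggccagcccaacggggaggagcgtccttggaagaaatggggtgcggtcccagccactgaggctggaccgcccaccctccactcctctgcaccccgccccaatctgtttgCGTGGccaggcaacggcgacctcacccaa

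Neighbouring genes were looked for among the 58 called genes placed on GRCr8, and 3 pairs lay within 100 kb. Besides Ang and Rnase4 these were Amy1 and Amy2a3, 56.7 kb apart on chromosome 2, and Acy3 and Gstp1, 52.0 kb apart on chromosome 1. The measured neighbours of these pairs had smaller interactions. Rnpc3, next to the amylases, had an interaction of 0.01 (SE 0.13), Nudt8 and Ndufv1, between Acy3 and Gstp1, had 0.09 (SE 0.18) and 0.22 (SE 0.15), Tmem134, beyond Gstp1, had 0.32 (SE 0.11), and Rnase1l2, beyond Rnase4, had -0.07 (SE 0.10). The 250 bases before the start of each amylase gene, chr2:204014413-204014662 and chr2:204085911-204086160, both on the minus strand, are shown because both neighbours were called. Capitals mark matches to the motifs named below, AGGTCA and the complement of CCACG, which were found before Amy1 only.
Amy2a3: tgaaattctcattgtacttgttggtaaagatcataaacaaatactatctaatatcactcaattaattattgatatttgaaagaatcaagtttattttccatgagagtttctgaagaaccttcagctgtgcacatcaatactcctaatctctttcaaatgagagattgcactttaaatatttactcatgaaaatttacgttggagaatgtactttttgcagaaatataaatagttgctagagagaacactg
Amy1: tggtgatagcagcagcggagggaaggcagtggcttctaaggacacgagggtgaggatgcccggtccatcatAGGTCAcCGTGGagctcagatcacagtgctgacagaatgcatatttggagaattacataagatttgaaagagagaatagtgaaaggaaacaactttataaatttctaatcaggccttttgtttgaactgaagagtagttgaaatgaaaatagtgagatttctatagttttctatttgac

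The 3 called genes of the unfolded protein response were lower in the DU than in the other arrays and rose under tungstate in diabetic rats. Xbp1, the transcription factor of the response, read 11.84, 11.81 and 11.74 (HU), 11.65, 11.71 and 11.81 (HT), 11.19, 11.17 and 11.34 (DU) and 12.06, 12.06 and 11.99 (DT). The DU arrays were below and the DT arrays above all healthy arrays, and the HU and HT arrays overlapped. The interaction of Xbp1 was 0.88 (SE 0.11, adjusted p = 0.00170). Sel1l, the adaptor of the ubiquitin ligase that clears misfolded proteins from the ER, read 10.87, 10.93 and 11.18 (HU), 10.90, 11.08 and 11.22 (HT), 9.99, 9.96 and 9.91 (DU) and 11.01, 11.07 and 11.26 (DT). Its DU arrays were below the other 9, which overlapped with each other. It had an interaction of 1.09 (SE 0.15, adjusted p = 0.00410), kept under all 20 alternatives. Sdf2l1, a chaperone component of the ER, read 9.97, 9.92 and 10.11 (HU), 10.24, 10.03 and 10.07 (HT), 8.98, 9.47 and 9.22 (DU) and 10.17, 10.20 and 10.29 (DT), again with the DU arrays lowest, and its interaction was 0.88 (SE 0.16, adjusted p = 0.0305). Sdf2l1 lost its call without any 1 array but DU2 and HT1 (adjusted p from 0.0509 to 0.0997) and with blocking by chip lot (0.0651). Xbp1 lost its call with blocking by scan day (adjusted p = 0.0700), and both Xbp1 and Sdf2l1 lost theirs after a further quantile normalization.

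Of the 72 ER chaperone and unfolded protein response genes measured, 3 were called (4.17%, beside 0.567% of all genes), all with a higher interaction. The median interaction of the list was 0.17 with 61 of 72 above 0. Over all genes the median was 0.005, with 5332 of 10411 above 0 and an 80% range of -0.24 to 0.26. Within scan days the list's median interaction was 0.44 and within chip lots 0.12. The members were measured on the same arrays and are not independent of each other. Their median deviation from each gene's mean was -0.13 to 0.15 in the HU arrays, -0.08 to 0.05 in HT, -0.10 to -0.03 in DU and 0.03 to 0.17 in DT. The HU and DT arrays thus overlapped. Among the 69 members not called, interactions ranged from -0.29 to 1.04, and 14 had an unadjusted p under 0.05, all above 0. Of all 10411 genes, 1132 had such a p in either direction, the count to set beside those of the lists here and below. Derl1, a channel protein of the same removal machinery, had 0.48 (SE 0.13, adjusted p = 0.236). The highest value not called was that of Dnajb9, a cofactor of the main ER chaperone, with an interaction of 1.04 (SE 0.48, adjusted p = 0.568). Of 38 genes of the integrated stress response and tRNA synthetases none was called by limma, and 4 had an unadjusted p under 0.05. Nupr1, a stress-induced chromatin protein, had the smallest p of them with -1.16 (SE 0.27, adjusted p = 0.133).

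**Figure D3:**
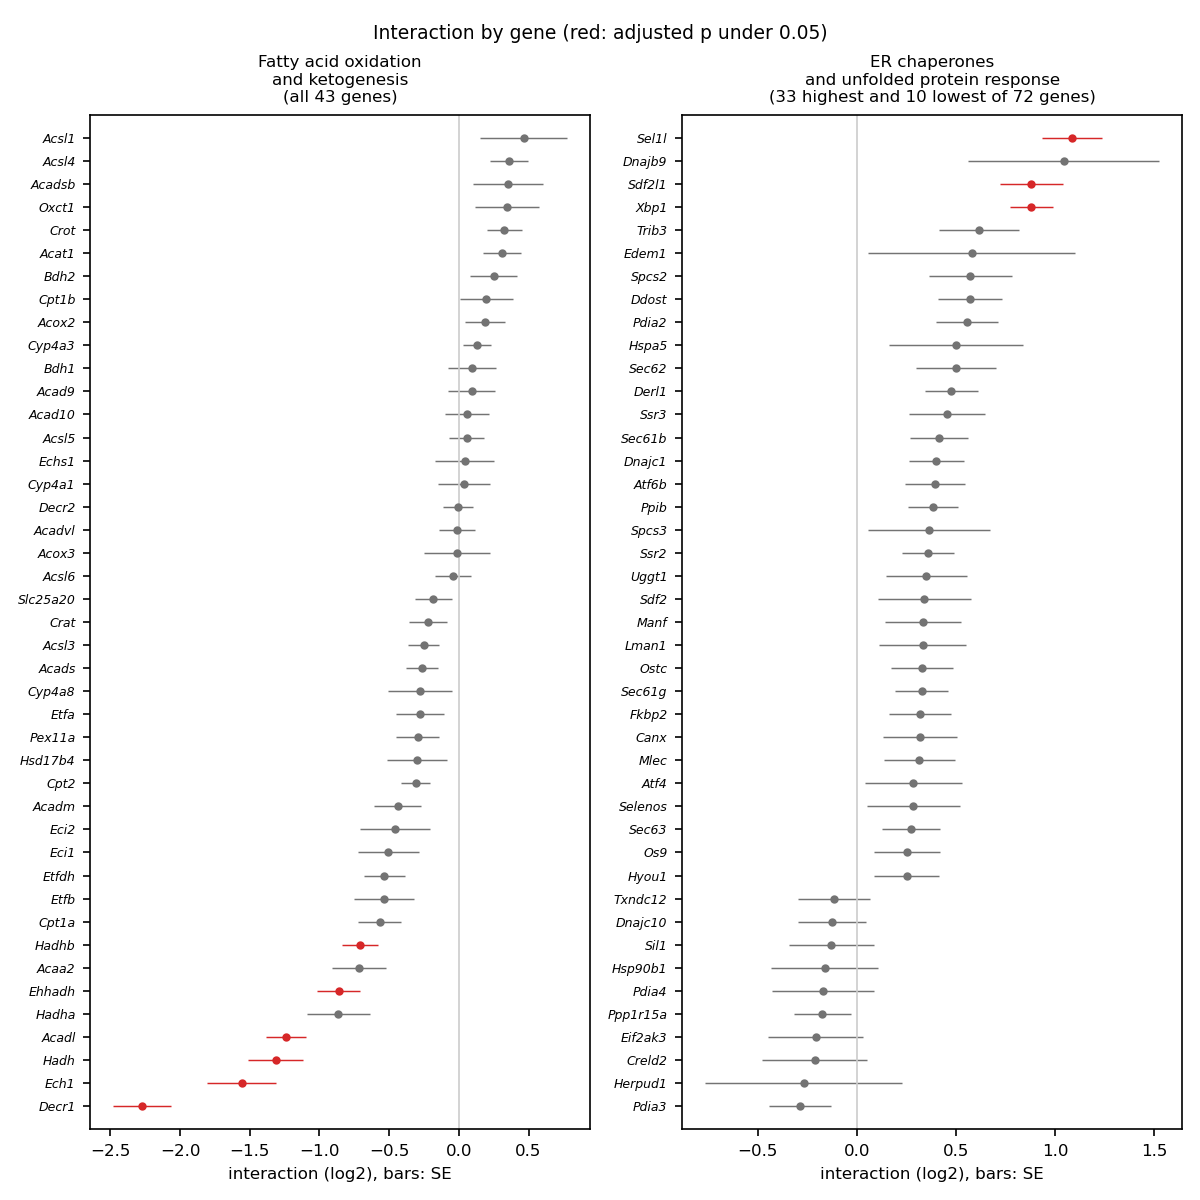
Interaction (x axis, log2, bars are standard errors from limma) by gene for fatty acid oxidation and ketogenesis (left, all 43 genes) and for ER chaperones and the unfolded protein response (right, the 33 highest and 10 lowest of 72 genes). Red points passed an adjusted p of 0.05 over all probe sets. On the left 6 genes from -2.27 (Decr1) to -0.71 (Hadhb) passed, and on the right 3 genes from 0.88 to 1.09.

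The 250 bases before the start of these 3 ER genes, from RefSeq on GRCr8, are printed because all 3 genes rose. They are chr14:84604373-84604622 on the plus strand, chr6:116510362-116510611 on the minus strand and chr11:97376628-97376877 on the plus strand. Capitals mark CCACG or its complement, the core of the ER stress response element, and in Sel1l also the motif TGANTCA.
Xbp1: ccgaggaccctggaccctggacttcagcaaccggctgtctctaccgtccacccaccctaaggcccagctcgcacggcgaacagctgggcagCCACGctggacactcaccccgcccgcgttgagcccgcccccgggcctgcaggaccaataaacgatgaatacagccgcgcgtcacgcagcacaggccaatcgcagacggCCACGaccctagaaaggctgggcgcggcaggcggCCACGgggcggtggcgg
Sel1l: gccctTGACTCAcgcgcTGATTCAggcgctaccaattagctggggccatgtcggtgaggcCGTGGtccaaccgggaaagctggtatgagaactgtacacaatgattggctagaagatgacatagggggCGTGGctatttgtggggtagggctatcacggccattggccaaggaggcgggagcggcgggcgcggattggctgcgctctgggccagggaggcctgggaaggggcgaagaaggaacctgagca
Sdf2l1: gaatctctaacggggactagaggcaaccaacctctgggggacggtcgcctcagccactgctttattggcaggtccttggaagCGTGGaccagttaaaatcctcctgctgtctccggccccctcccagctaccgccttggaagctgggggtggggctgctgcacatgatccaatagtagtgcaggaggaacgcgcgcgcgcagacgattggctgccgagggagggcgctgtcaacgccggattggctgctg
CCACG was found at -159, -51 and -17 from the start of Xbp1, at -190 and -122 in Sel1l and at -168 in Sdf2l1. It is short and common. Over windows of 300 bases, from 250 before to 50 after the start and on both strands, it was present in 32.5% of all 27457 promoters, in 13 of the 32 promoters of genes with a higher interaction (40.6%) and in 7 of the 14 with a lower interaction (50%). Of the 59 called genes, 46 had a promoter in the table. AGGTCA, the core motif of nuclear receptors such as PPAR alpha, was in 15.7% of all promoters, in 12.5% of those with a higher and in 7.14% of those with a lower interaction. CACGTG, which can overlap CCACG, was in 6.65%, 6.25% and 0%, TGATGNAA in 3.82%, 6.25% and 7.14%, TGANTCA in 7.33%, 6.25% and 7.14%, and TGACGTCA in 1.91%, 0% and 0% of these groups in the same order. A match shows letters and not a site in use.

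Among the 22 genes with a lower interaction were 6 enzymes of fatty acid oxidation. They were high in the DU arrays and fell under tungstate in the diabetic rats, while the healthy rats showed little difference. Decr1, which reduces the double bonds of unsaturated fatty acids in mitochondria, read 7.79, 7.73 and 7.79 (HU), 7.55, 7.71 and 7.85 (HT), 10.70, 10.75 and 10.61 (DU) and 8.58, 7.90 and 8.55 (DT). The DU arrays were above the other 9, and the DT arrays stayed above the healthy arrays, DT2 by the least. The interaction of Decr1 was -2.27 (SE 0.21, adjusted p = 0.000113). Ech1, an isomerase acting on the same kind of fatty acid, read 8.71, 8.95 and 8.83 (HU), 8.89, 8.58 and 8.37 (HT), 10.50, 10.55 and 10.70 (DU) and 9.13, 8.33 and 8.96 (DT). The DT arrays overlapped with the healthy arrays, DT2 being the lowest of all 12. For Ech1 the interaction was -1.56 (SE 0.25, adjusted p = 0.0133). Hadh, the hydroxyacyl-CoA dehydrogenase of short chains, read 8.71, 9.0 and 8.66 (HU), 8.68, 8.75 and 8.53 (HT), 10.16, 10.32 and 9.91 (DU) and 8.79, 8.39 and 8.85 (DT), and again only the DU arrays stood off. Its interaction was -1.31 (SE 0.20, adjusted p = 0.00785), while a second, dimmer probe set of Hadh gave -0.08 (SE 0.17). Acadl, the dehydrogenase of long-chain acyl-CoA, read 6.71, 6.74 and 6.78 (HU), 6.71, 6.63 and 6.72 (HT), 8.36, 8.48 and 8.21 (DU) and 7.16, 6.82 and 7.19 (DT). The DT arrays were between, above all healthy arrays and more than 1 unit below the DU arrays. Its interaction was -1.24 (SE 0.14, adjusted p = 0.00107).

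Ehhadh, the bifunctional enzyme of peroxisomes, averaged 4.51 (HU), 4.49 (HT), 5.55 (DU) and 4.68 (DT), with an interaction of -0.86 (SE 0.16, adjusted p = 0.0305). Hadhb, the beta subunit of the mitochondrial trifunctional protein, averaged 8.73 (HU), 8.47 (HT), 9.85 (DU) and 8.87 (DT), with -0.71 (SE 0.13, adjusted p = 0.0305). The HT arrays of Hadhb were all below the HU arrays, a difference of -0.26 (unadjusted p = 0.0124, adjusted p = 0.871). Of the 43 measured enzymes and carriers of fatty acid oxidation and ketogenesis, 6 were called (14.0% of the list, beside 0.211% of all genes with a lower interaction), and the median interaction of the list was -0.18. The 37 others ranged from -0.87 to 0.47. Of these, 13 had an unadjusted p under 0.05, 10 below 0 and 3 above, beside 1132 of all 10411 genes. Hadha, the partner subunit of Hadhb, had -0.87 (adjusted p = 0.196) and Cpt1a, the carnitine transferase that admits fatty acids to mitochondria, had -0.57 (adjusted p = 0.204), while Acsl1, an acyl-CoA synthetase, had 0.47 (adjusted p = 0.731). With blocking by scan day Decr1 alone of the 6 kept its call (adjusted p = 0.0285), and the adjusted p was 0.222 for Ech1, 0.0518 for Hadh, 0.0677 for Acadl, 0.0828 for Ehhadh and 0.356 for Hadhb. Ech1 lost its call without HU1 (adjusted p = 0.0575), Ehhadh lost its call without any 1 array but DT1, DU1, DU2 and DU3 (adjusted p from 0.0510 to 0.0927) and Hadhb lost its call without any 1 array but DT1, HT3 and HU3 (adjusted p from 0.0509 to 0.119).

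Of other genes known as PPAR targets, Angptl4 and Vnn1 had the same form. Angptl4, a secreted inhibitor of lipoprotein lipase, read 5.39, 5.24 and 5.44 (HU), 5.34, 5.40 and 5.42 (HT), 6.75, 6.83 and 7.39 (DU) and 5.20, 5.39 and 5.21 (DT), so that the DU arrays were the only ones above 6. Its interaction was -1.75 (SE 0.19, adjusted p = 0.000643), kept under all 20 alternatives. Vnn1, the pantetheinase that frees the vitamin part of coenzyme A, read 4.96, 4.88 and 4.78 (HU), 4.87, 4.59 and 4.74 (HT), 5.60, 6.0 and 5.90 (DU) and 4.45, 4.71 and 4.73 (DT), again highest in DU, and was among the 25% of probe sets with the lowest means, as was Ehhadh. The interaction of Vnn1 was -1.06 (SE 0.16, adjusted p = 0.0104), and it lost its call with blocking by scan day (adjusted p = 0.215) and without the 3 arrays of chip lot 3. These were 2 of 26 genes on the list of other PPAR targets and lipid handling (7.69%, beside 0.567% of all genes), whose median was -0.11. Pdk4, a kinase that shuts off pyruvate oxidation, came next with -0.92 (SE 0.26, adjusted p = 0.242), and Slc27a1, a fatty acid transporter, had -0.40 (adjusted p = 0.308). None of 39 genes of fatty acid, triglyceride and cholesterol synthesis was called by limma. Their median was 0.07, 6 had an unadjusted p under 0.05, and the smallest p was that of Fads2, a desaturase (0.67, adjusted p = 0.183). Coq8a, a kinase-like protein of coenzyme Q synthesis, read 6.92, 6.87 and 6.91 (HU), 6.95, 7.07 and 6.89 (HT), 7.85, 7.56 and 7.77 (DU) and 6.81, 6.23 and 6.95 (DT). DT2 was the lowest of its 12 arrays and the DU arrays were the highest. Its interaction was -1.14 (SE 0.21, adjusted p = 0.0321). Coq8a lost its call without any 1 array but DT1, DT2, DT3 and DU2 (adjusted p from 0.0665 to 0.105) and with blocking by scan day (0.130) or chip lot (0.0687).

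The lowest interaction of all was that of Tdh, threonine dehydrogenase, the mitochondrial enzyme that opens the breakdown of threonine to glycine and acetyl-CoA. Tdh read 8.0, 7.18 and 6.68 (HU), 6.95, 7.30 and 6.43 (HT), 11.71, 11.59 and 11.18 (DU) and 6.52, 6.47 and 6.58 (DT). The DU arrays were more than 3 units above the other 9, and the DT arrays were within the range of the healthy arrays, of which HU1 was the highest. The response was -4.97 in diabetic rats and -0.39 in healthy rats, and the interaction was -4.58 (SE 0.39, adjusted p = 6.65e-05), -5.66 within scan days and -4.69 within chip lots. Of 27 genes of threonine, glycine, serine and creatine metabolism Tdh was the only one called, and the median was 0.01. Gamt and Gnmt, methyltransferases that make creatine and sarcosine, had -0.52 (adjusted p = 0.204) and 0.53 (adjusted p = 0.260). A probe set that carries no symbol here read 7.40, 7.44 and 7.46 (HU), 7.44, 7.27 and 7.31 (HT), 11.05, 10.75 and 11.22 (DU) and 7.75, 7.14 and 7.43 (DT) and had the next lowest interaction, -3.48 (SE 0.20, adjusted p = 1.1e-06).

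Ppcdc, which makes phosphopantetheine on the way to coenzyme A, read 6.83, 6.96 and 6.69 (HU), 6.73, 6.70 and 6.75 (HT), 9.22, 9.33 and 9.58 (DU) and 6.88, 6.59 and 6.68 (DT). The 9 other arrays were close to each other, and the DU arrays were more than 2 units above them. Its interaction was -2.56 (SE 0.15, adjusted p = 1.13e-06). Of 16 genes of coenzyme A synthesis and acyl-CoA thioesterases it was the only one called, and Coasy, which carries out the last steps of the same pathway, had 0.42 (adjusted p = 0.325). Cbr1, a carbonyl reductase, read 7.95, 7.88 and 7.94 (HU), 7.94, 7.99 and 7.89 (HT), 9.90, 10.34 and 10.61 (DU) and 8.18, 8.06 and 8.16 (DT). Only the DU arrays were above 9, and the healthy and DT arrays spanned 7.88 to 8.18. The interaction of Cbr1 was -2.16 (SE 0.19, adjusted p = 6.82e-05), and it was the only one called of 29 carbonyl and aldo-keto reductases, whose median was 0.09. Impa2, an inositol monophosphatase, read 5.95, 5.71 and 5.71 (HU), 5.84, 5.50 and 5.63 (HT), 7.27, 7.56 and 7.84 (DU) and 5.85, 5.54 and 6.21 (DT), and its interaction was -1.56 (SE 0.24, adjusted p = 0.00901). The DU arrays of Impa2 were above the other 9. Its call was lost with blocking by scan day (adjusted p = 0.0742), whereas those of Tdh, Ppcdc and Cbr1 were kept under all 20 alternatives.

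**Figure D4:**
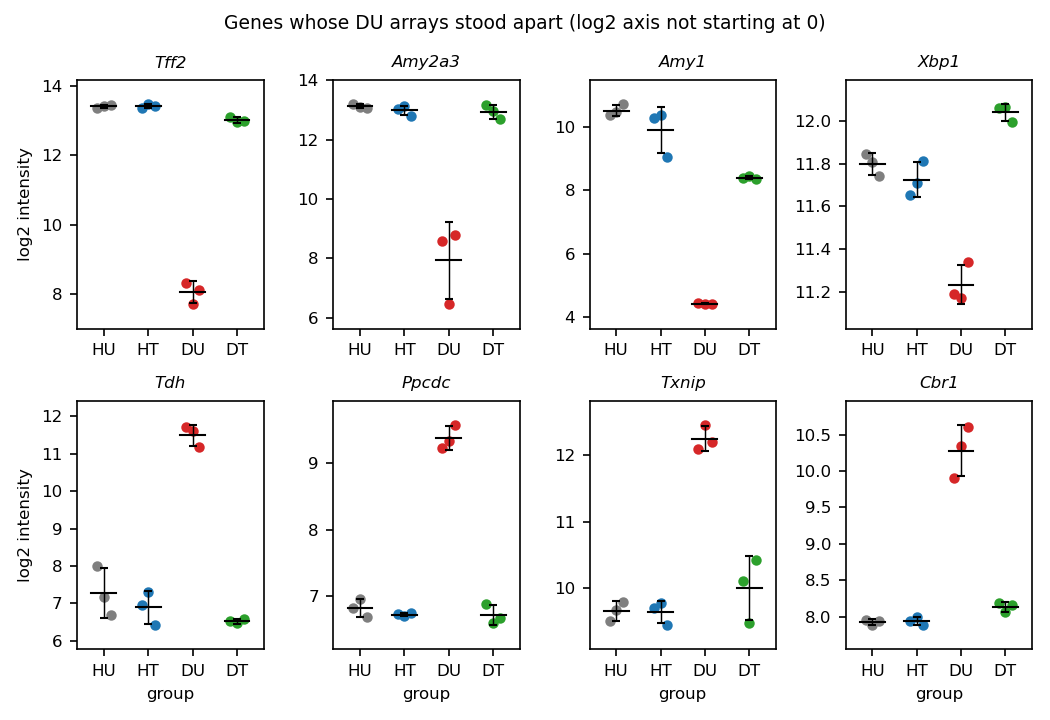
Log2 intensity (y axis, not starting at 0) in each of the 3 arrays per group (x axis) for 8 genes whose DU group stood apart. Points are arrays, long lines are group means and bars are standard deviations (n = 3). The DU arrays lie below all others in Tff2, Amy2a3, Amy1 and Xbp1 and above all others in Tdh, Ppcdc, Txnip and Cbr1.

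Txnip, an inhibitor of thioredoxin whose transcript is known to rise with glucose, read 9.51, 9.68 and 9.80 (HU), 9.71, 9.78 and 9.45 (HT), 12.08, 12.45 and 12.19 (DU) and 10.12, 9.48 and 10.42 (DT). Highest were the DU arrays, DT2 was among the healthy arrays, and DT1 and DT3 were above them. The interaction was -2.21 (SE 0.27, adjusted p = 0.00142), kept under all 20 alternatives. Of 12 genes known to be induced by glucose Txnip alone was called, and the median was -0.09. Fgf21, a hormone of fasting and stress, had -0.75 (adjusted p = 0.354). Fbp2, a fructose bisphosphatase of gluconeogenesis, read 8.18, 8.36 and 8.24 (HU), 8.20, 8.14 and 8.11 (HT), 9.89, 9.53 and 9.52 (DU) and 8.33, 7.93 and 8.30 (DT), with the DU arrays above the other 9. For Fbp2 the interaction was -1.35 (SE 0.17, adjusted p = 0.00180), also kept under all 20 alternatives. Its paralogue Fbp1 had -1.01 (SE 0.22, adjusted p = 0.0796) and did not pass. Fbp2 was the only gene called among 47 of glucose metabolism, whose median was 0.01.

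Among 54 glutathione and antioxidant genes 3 were called (5.56%, beside 0.567% of all genes), in both directions. Gstt3, a glutathione transferase, read 8.30, 8.09 and 8.37 (HU), 8.38, 8.28 and 8.57 (HT), 9.32, 9.21 and 9.35 (DU) and 8.03, 8.0 and 8.49 (DT), highest in the DU arrays, with an interaction of -1.28 (SE 0.18, adjusted p = 0.00468), kept under all 20 alternatives. Gstp1, another transferase, averaged 10.38 (HU), 10.27 (HT), 9.41 (DU) and 10.33 (DT), lowest in the DU group, with 1.03 (SE 0.17, adjusted p = 0.0186). Txnip was the third. Gstp1 lost its call without DU2, HT1, HT2, HU1 or HU3 (adjusted p from 0.0533 to 0.0610), and with blocking by scan day (0.242). Glrx, a glutaredoxin, came next with -0.46 (adjusted p = 0.159), and the median of the list was -0.01. Acy3, an aminoacylase that acts on the acetylated products of the glutathione transferases, averaged 7.59 (HU), 7.49 (HT), 7.52 (DU) and 8.46 (DT), with the DT arrays alone above 8. Its interaction was 1.03 (SE 0.15, adjusted p = 0.00538), and its call was lost with blocking by scan day (0.286) and without the arrays of chip lot 3.

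Sin3b, a scaffold of histone deacetylase complexes, read 8.28, 8.23 and 8.30 (HU), 8.19, 8.11 and 8.43 (HT), 9.83, 9.83 and 9.76 (DU) and 8.84, 8.40 and 8.64 (DT). Its DU arrays were the highest and DT1 and DT3 stayed above the healthy arrays. The interaction was -1.15 (SE 0.16, adjusted p = 0.00337), 0.210 being its adjusted p with blocking by scan day, and a second probe set gave -0.58 (unadjusted p = 0.0448). The 5 remaining genes with a lower interaction differed by less than 1 unit. LOC102552398, an uncharacterized locus, had -0.85 (adjusted p = 0.0390), Cp, the copper carrier ceruloplasmin, -0.81 (0.0426), Stap2, a signalling adaptor, -0.73 (0.0379), Pebp1, the Raf kinase inhibitor, -0.67 (0.0427), and Pan3, a subunit of a deadenylase, -0.66 (0.0305). In Cp and Stap2 the HT arrays were all above the HU arrays, by 0.29 and 0.25, with unadjusted p of 0.0202 and 0.0215 and adjusted p of 0.871 and 0.871. Further probe sets of Cp gave -0.46 (unadjusted p = 0.0371) and -0.23, and that of Pan3 gave 0.15 (SE 0.11), the opposite sign. All 5 lost their calls with blocking by scan day, with adjusted p of 0.1001, 0.161, 0.112, 0.449 and 0.161 in the same order. LOC102552398 lost its call without any 1 array but DT3, DU2 and DU3 (adjusted p from 0.0831 to 0.131). Cp lost its call without any 1 array but DT3 (adjusted p from 0.0577 to 0.144). Stap2 lost its call without any 1 array but DT2, DT3, DU3 and HU2 (adjusted p from 0.0508 to 0.123). Pebp1 lost its call without any 1 array but DT1, DT3 and HU3 (adjusted p from 0.0797 to 0.133). Pan3 lost its call without any 1 array but DT3, HT3 and HU2 (adjusted p from 0.0586 to 0.0970).

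In another 15 genes it was the DT group that stood apart, as the highest group in 14 and as the lowest in Pebp1. Herc4, a ubiquitin ligase, read 6.42, 6.25 and 6.61 (HU), 6.36, 6.19 and 5.57 (HT), 5.82, 6.06 and 5.26 (DU) and 8.60, 8.94 and 7.36 (DT). All 3 DT arrays were above the other 9, DT3 the least. Its interaction was 2.97 (SE 0.47, adjusted p = 0.0120), and it was called in 19 of the 20 alternatives, the exception being limma with trend and robust. C2cd4b, a nuclear protein with a calcium-binding domain, read 8.71, 8.56 and 8.11 (HU), 8.96, 8.63 and 8.69 (HT), 8.27, 8.38 and 8.29 (DU) and 9.92, 9.91 and 10.86 (DT). Here DT3 was the highest, and DT1 and DT2 also lay above the other 9. The interaction of C2cd4b was 1.62 (SE 0.31, adjusted p = 0.0390), but 0.96 within scan days, and the call was lost with blocking by scan day (adjusted p = 0.198). C2cd4b lost its call without any 1 array but DT1, DT2, DT3 and HU3 (adjusted p from 0.0676 to 0.139). Tspan8, a tetraspanin of the cell surface, read 5.74, 5.45 and 5.51 (HU), 5.46, 5.53 and 5.42 (HT), 5.39, 5.39 and 5.31 (DU) and 7.15, 6.77 and 6.53 (DT). The DT arrays were above 6.5 and the others below 5.8. Its interaction was 1.55 (SE 0.18, adjusted p = 0.00110), with an adjusted p of 0.0518 with blocking by scan day. Sat1, the acetyltransferase that starts polyamine breakdown, read 6.49, 6.29 and 6.51 (HU), 6.41, 6.61 and 6.72 (HT), 6.47, 6.44 and 6.37 (DU) and 7.83, 7.89 and 8.12 (DT). All DT arrays were more than 1 unit above the other 9, which overlapped. It had an interaction of 1.37 (SE 0.15, adjusted p = 0.000435), kept under all 20 alternatives.

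**Figure D5:**
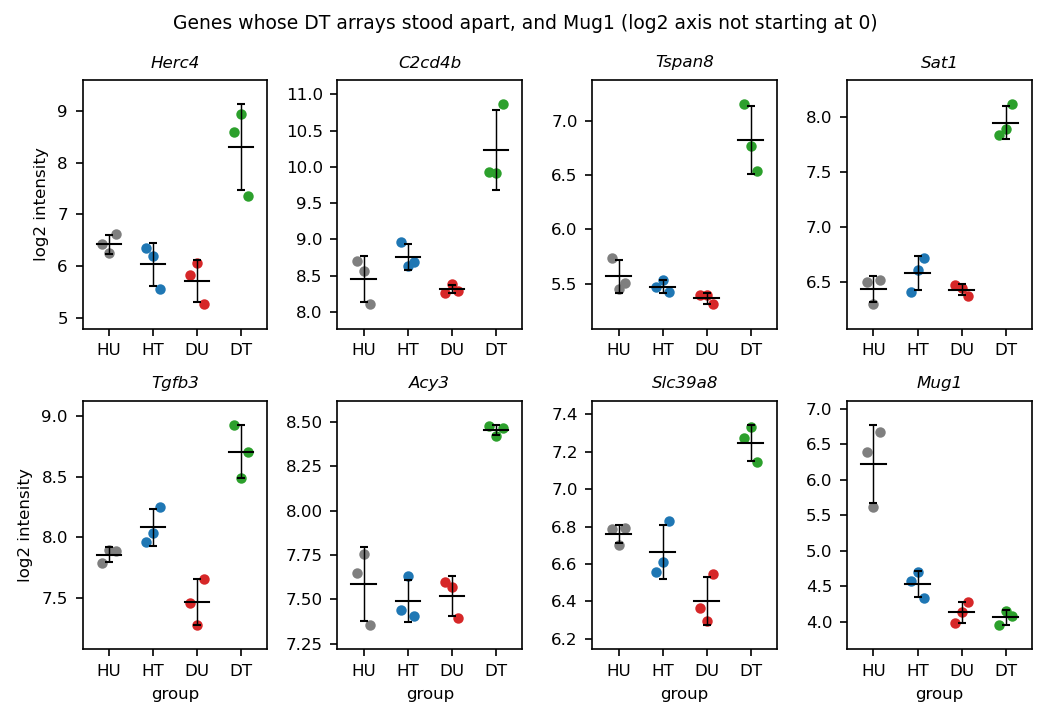
Log2 intensity (y axis, not starting at 0) in each of the 3 arrays per group (x axis) for 7 genes whose DT group stood apart and for Mug1, whose HU group did. Points are arrays, long lines are group means and bars are standard deviations (n = 3). In the 7 genes all DT arrays lie above the other 9, and in Mug1 only the HU arrays lie above 5.

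C1galt1c1, the chaperone of the enzyme that extends mucin-type sugar chains, read 7.08, 6.66 and 6.95 (HU), 6.45, 6.86 and 6.41 (HT), 6.55, 6.50 and 6.49 (DU) and 7.30, 7.18 and 7.46 (DT). Its DT arrays were above the other 9, and HT1 and HT3 were the lowest arrays, with a healthy response of -0.32 (unadjusted p = 0.0264). The interaction was 1.12 (SE 0.18, adjusted p = 0.0153). C1galt1c1 lost its call without HT1 or HU1 (adjusted p from 0.0575 to 0.0577), and with blocking by scan day (0.343). Tgfb3, a ligand of the transforming growth factor family, averaged 7.85 (HU), 8.08 (HT), 7.46 (DU) and 8.71 (DT), with an interaction of 1.02 (SE 0.17, adjusted p = 0.0210). Tgfb3 lost its call without any 1 array but DT1, DT2, DT3, DU3 and HT3 (adjusted p from 0.0575 to 0.0694), and with blocking by scan day (0.170). Slc39a8, an importer of zinc and manganese, averaged 6.76 (HU), 6.66 (HT), 6.40 (DU) and 7.25 (DT), with 0.94 (SE 0.13, adjusted p = 0.00483), kept under all 20 alternatives. The remaining genes of this form had interactions of 0.81 for Pls1, an actin-bundling protein, 0.77 for S1pr5, a sphingosine phosphate receptor, 0.76 for Ctdspl, a small phosphatase, 0.75 for Dram1, a lysosomal membrane protein of autophagy, and 0.74 for Slc25a5, the mitochondrial carrier of adenine nucleotides. Their adjusted p-values were 0.0305, 0.00516, 0.0210, 0.0222 and 0.0402. A second, dimmer probe set of Ctdspl had the opposite sign (-0.38, unadjusted p = 0.0452). In Slc25a5, S1pr5, Ctdspl and Dram1 the HT arrays were all below the HU arrays as well, with differences of -0.26, -0.19, -0.14 and -0.18, with unadjusted p of 0.0226, 0.0325, 0.147 and 0.0764. All 5 lost their calls with blocking by scan day, with adjusted p of 0.222, 0.182, 0.171, 0.270 and 0.302. S1pr5 kept its call whichever array was left out. Pls1 lost its call without any 1 array but DT3 and HT1 (adjusted p from 0.0575 to 0.0997). Ctdspl lost its call without any 1 array but DT1, DT2, DT3 and DU3 (adjusted p from 0.0577 to 0.0652). Dram1 lost its call without any 1 array but DT1, DT2, DT3 and HU1 (adjusted p from 0.0517 to 0.0716). Slc25a5 lost its call without any 1 array but DT3 (adjusted p from 0.0593 to 0.142). Acy3, Rnase4 and Pebp1, described above, were the other genes of this form.

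In Anpep, Dpep1, Aqp8, Cd24 and Fcgbp all DU arrays were below the other 9. Anpep, aminopeptidase N, read 9.35, 9.57 and 9.67 (HU), 9.59, 9.70 and 9.81 (HT), 8.92, 8.45 and 8.87 (DU) and 10.49, 10.26 and 10.20 (DT). Lowest were the DU arrays and highest the DT arrays, without overlap with the healthy arrays. Its interaction was 1.40 (SE 0.18, adjusted p = 0.00245), kept under all 20 alternatives. Dpep1, a membrane dipeptidase, read 9.97, 9.84 and 9.92 (HU), 9.88, 9.81 and 9.89 (HT), 9.49, 9.48 and 9.49 (DU) and 10.21, 10.11 and 10.16 (DT). Its groups were tight, with the DU arrays below and the DT arrays above all healthy arrays, and the interaction was 0.72 (SE 0.10, adjusted p = 0.00359), with 0.212 as the adjusted p with blocking by scan day. A second, dimmer probe set of Dpep1 gave 0.20 (SE 0.17, unadjusted p = 0.249). Aqp8, a water channel, read 10.13, 10.35 and 9.88 (HU), 9.93, 9.66 and 10.34 (HT), 8.36, 8.66 and 8.75 (DU) and 9.97, 9.87 and 9.44 (DT), lowest in DU. Its interaction was 1.32 (SE 0.26, adjusted p = 0.0434). Aqp8 lost its call without any 1 array but DT3, HT3 and HU3 (adjusted p from 0.0675 to 0.139), and with blocking by chip lot (0.0845). Cd24, a sugar-rich surface protein, read 9.08, 9.33 and 9.31 (HU), 9.0, 8.85 and 9.13 (HT), 7.31, 7.46 and 8.26 (DU) and 9.02, 8.62 and 9.25 (DT), where DU3 was closer to the other groups than DU1 and DU2. Its interaction was 1.53 (SE 0.30, adjusted p = 0.0427). Cd24 lost its call without any 1 array but DT2 and DU3 (adjusted p from 0.0730 to 0.131). Fcgbp, a mucus protein, read 8.43, 8.46 and 8.57 (HU), 8.45, 8.40 and 8.79 (HT), 7.05, 6.88 and 7.66 (DU) and 8.78, 8.44 and 8.55 (DT), with all DU arrays below 7.7 and the others above 8.3. For Fcgbp the interaction was 1.33 (SE 0.24, adjusted p = 0.0305). Fcgbp lost its call without any 1 array but DT2, DT3, DU3 and HT3 (adjusted p from 0.0671 to 0.0997). Of 9 trefoil peptides and mucins measured, Tff2 was the only one called, and Tff1 had 0.19 (SE 0.11, adjusted p = 0.680).

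Cyp2d2, a cytochrome P450 that oxidizes drugs, read 8.77, 8.86 and 8.69 (HU), 8.48, 8.87 and 8.72 (HT), 7.48, 7.35 and 7.54 (DU) and 8.90, 8.68 and 8.96 (DT). The DU arrays were more than 0.9 below the other 9, which overlapped. Its interaction was 1.48 (SE 0.15, adjusted p = 0.000398), and its call was lost with blocking by scan day only (adjusted p = 0.0956). Sostdc1, a secreted antagonist of bone morphogenetic proteins and Wnt, averaged 8.41 (HU), 8.42 (HT), 7.83 (DU) and 8.93 (DT), with 1.10 (SE 0.18, adjusted p = 0.0149). Sostdc1 lost its call without DU1, DU2, HT1 or HU1 (adjusted p from 0.0512 to 0.0577), and with blocking by scan day (0.123). With Tgfb3 it made 2 called of 50 genes of the TGF-beta, BMP and Wnt pathways (4.0%, beside 0.567% of all genes), whose median was -0.04. Id2, a target of BMP signals, was next with 0.74 (adjusted p = 0.156). Nr0b2, a nuclear receptor without a DNA-binding domain that represses other receptors, averaged 6.36 (HU), 6.43 (HT), 5.56 (DU) and 6.41 (DT), with 0.78 (SE 0.15, adjusted p = 0.0347). Htr1d, a serotonin receptor, had 0.74 (SE 0.13, adjusted p = 0.0190). Tc2n, a protein with tandem C2 domains, Mrpl28, of the mitochondrial ribosome, and Proc, the anticoagulant protein C, had 1.07, 0.65 and 0.72, with adjusted p of 0.0210, 0.0216 and 0.0426. In these 3 the HT arrays were all below the HU arrays, with differences of -0.44, -0.16 and -0.22 (unadjusted p of 0.00473, 0.0609 and 0.0458), and the diabetic rats rose by 0.63, 0.49 and 0.50. Nr0b2 lost its call without any 1 array but DT3 (adjusted p from 0.0577 to 0.112). Htr1d lost its call without DU1, DU2, HT2, HT3, HU1 or HU3 (adjusted p from 0.0532 to 0.0774). Tc2n lost its call without any 1 array but DT1, DT3, DU2, HT2 and HU3 (adjusted p from 0.0543 to 0.0780). Mrpl28 lost its call without any 1 array but DT1, DT2, DT3, HT2 and HU3 (adjusted p from 0.0537 to 0.0862). Proc lost its call without any 1 array but DT3 and DU2 (adjusted p from 0.0891 to 0.127). With blocking by scan day Tc2n kept its call (0.0352), and the others had an adjusted p of 0.143, 0.201, 0.349 and 0.0575 in the order of this paragraph.

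Mug1, murinoglobulin, a protease inhibitor of rodent plasma, was the exception among the called genes, because its interaction came from the healthy rats. It read 6.39, 5.62 and 6.68 (HU), 4.57, 4.70 and 4.34 (HT), 3.98, 4.14 and 4.28 (DU) and 3.96, 4.16 and 4.08 (DT). The HT arrays fell below the HU arrays by 1.69 (adjusted p = 0.0181), whereas the DU and DT arrays overlapped (-0.07, adjusted p = 0.961). Its interaction was 1.62 (SE 0.29, adjusted p = 0.0259). Outside the HU group Mug1 was dim, against a lowest level of 3.44 to 3.51 on an array, and it was among the 25% of probe sets with the lowest means. Mug1 lost its call without any 1 array but DT1, DT3, DU3, HU2 and HU3 (adjusted p from 0.0518 to 0.0950), with blocking by scan day (0.0745) or chip lot (0.0559), and with trend and robust. Of 25 plasma-type protease inhibitors it was the only one called, and Serpini1, an inhibitor of tissue plasminogen activator, was next with 0.88 (adjusted p = 0.1004).

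The insulin genes, which stand for the beta cells, did not pass the interaction test. Ins2 read 13.26, 13.43 and 13.32 (HU), 13.47, 13.36 and 13.32 (HT), 8.84, 8.79 and 8.26 (DU) and 9.58, 9.56 and 11.11 (DT). The DU arrays were the lowest, DT1 and DT2 were less than 1 unit above the highest of them, and DT3 was well above the other DT arrays. Its interaction was 1.41 (SE 0.44, adjusted p = 0.319), and 0.63 within scan days, which leave out DT3. In DT vs. DU alone Ins2 did pass limma's test, with a rise of 1.45 (adjusted p = 0.0387), or 0.73 within the scan day, and the healthy response was 0.05. The interaction of Ins1 was 0.85 (SE 0.34, adjusted p = 0.483), and its rise in DT vs. DU was 0.86 (adjusted p = 0.160). Of 22 beta cell genes 1 was called, Gad1, which makes the transmitter GABA. Gad1 averaged 5.47 (HU), 5.42 (HT), 5.02 (DU) and 5.88 (DT), with an interaction of 0.92 (SE 0.17, adjusted p = 0.0390), was among the 25% of probe sets with the lowest means, and had a second probe set at 0.00 (SE 0.12). Gad1 lost its call without any 1 array but DT1, DU2 and HT1 (adjusted p from 0.0621 to 0.127), and with blocking by scan day (0.312) or chip lot (0.0673). The summed level of 5 beta cell markers was 14.6 to 14.8 in the healthy arrays, 11.2 to 11.6 in DU and 11.7 to 13.1 in DT, and that of 3 markers of the other islet cells was 9.99 to 11.5 in all arrays. Such a sum of intensities follows the brightest marker most, in the beta cells Ins1. The dimmer Iapp, Pdx1 and Slc2a2 differed in DT vs. DU by 0.36, 0.05 and 0.01 (limma's adjusted p = 0.763, 0.933 and 0.995). Their DT and DU arrays overlapped. None of 22 other islet hormone and neuroendocrine genes was called by limma, with 3 at an unadjusted p under 0.05, the smallest being that of Sst, somatostatin (-1.21, adjusted p = 0.359).

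Of the genes that the study followed up, Xbp1, Sel1l, Tgfb3, Sostdc1, Tspan8 and Pebp1 were called here, and Fgf13, Ins2 and Nupr1 were not. Both amylase genes were called as well, whereas the study's amylase primers name 1 transcript. Fgf13, an intracellular growth factor homologue, read 7.81, 7.69 and 7.58 (HU), 7.33, 7.41 and 7.23 (HT), 7.21, 7.15 and 6.98 (DU) and 8.75, 7.54 and 8.29 (DT). Its DT arrays varied by more than 1 unit and DT2 overlapped with the healthy arrays. The interaction was 1.45 (SE 0.30, adjusted p = 0.0628). Its B-statistic, 0.611, was above 0, and it was called in 3 of the 20 alternatives, with dim probe sets left out, with the replicate block (adjusted p = 0.0467) and without DT2. In DT vs. DU alone Fgf13 passed limma's test, with a rise of 1.08 (adjusted p = 0.0225). Nupr1 read 10.50, 10.24 and 10.07 (HU), 10.44, 10.82 and 10.67 (HT), 11.74, 11.66 and 11.73 (DU) and 11.25, 10.35 and 11.17 (DT), highest in the DU arrays, with DT1 and DT3 between these and the healthy arrays. In the study Ins2, amylase and Nupr1 served as controls. The others were chosen on the same arrays, so that their calls here are no independent evidence. The study also rechecked the chosen genes, with Ins2 and amylase, by real-time PCR, and describes results similar to its arrays. By its account most of them did not differ significantly in diabetic rats whose glycaemia was lowered with phloridzin. The exceptions it gives are Sel1l (there Sel1h) and insulin, which rose significantly but less than under tungstate. Nupr1, its positive control, fell. The phloridzin rats were also restricted in food. These measurements were not part of the arrays used here.

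Lists for the other cells and pathways of the organ gave few or no calls. Over all 10411 genes, 0.567% were called and 1132 had an unadjusted p under 0.05. None was called by limma among 41 stellate cell, fibroblast and matrix genes (median -0.24, 7 with an unadjusted p under 0.05), 42 leukocyte and antigen presentation genes (median -0.12, 2), 14 endothelial genes (median -0.01, 1), 11 adipocyte genes (median -0.13, 2), 6 erythrocyte genes (median 0.05, 0), 39 cell cycle genes (median 0.03, 1), 37 insulin and IGF signalling genes (median -0.01, 1), 58 protein phosphatases (median 0.03, 11) or 19 secretagogue and incretin receptors (median -0.06, 3). Within scan days and within chip lots, both of which leave out DT3, the median of the stellate cell list was -0.31 and -0.43, and that of the leukocyte list -0.26 and -0.51. Tungstate is known as an inhibitor of phosphatases, and among their transcripts Ptprn2, a phosphatase-like protein of secretory granules, had the smallest p (0.52, adjusted p = 0.196). Sctr, the secretin receptor, led the receptors with 0.82 (adjusted p = 0.191). Among the rest, Gad1 was the only gene called of 51 of other amino acid metabolism, Sat1 of 12 of polyamine metabolism, Slc39a8 of 16 metallothioneins and zinc transporters, Tspan8 of 17 duct cell genes, Cp of 27 pancreatic injury and regeneration genes (median -0.23) and Pebp1 of 37 Erk feedback and immediate early genes. On the last list Dusp6, a phosphatase induced by Erk, had 1.73 (SE 0.39, adjusted p = 0.103). On the injury list Clu, clusterin, had -1.63 (SE 0.44, adjusted p = 0.209).

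Summed marker levels of the other cell types overlapped between the DT and DU arrays, at 10.2 to 10.9 against 10.8 to 11.1 for 6 stellate cell and fibroblast markers, 10.4 to 11.9 against 11.3 to 11.96 for 6 leukocyte markers, 8.39 to 8.80 against 8.63 to 8.72 for 3 duct markers, 8.12 to 8.45 against 8.29 to 8.35 for 3 endothelial markers, 8.72 to 9.05 against 8.76 to 9.46 for 4 adipocyte markers and 10.2 to 11.1 against 10.3 to 10.8 for 2 erythrocyte markers. For the stellate, leukocyte and endothelial markers the overlap came from DT3 (10.9, 11.9 and 8.45), since DT1 and DT2 were below all DU arrays. In the same order as before the healthy arrays lay between 10.7 and 11.3, 10.96 and 12.2, 8.41 and 8.64, 8.30 and 8.72, 8.86 and 9.81, and 11.2 and 12.3. None of these 24 markers was called by limma in the interaction, and 1, Spp1, had an unadjusted p under 0.05. Spp1, osteopontin, a duct marker, read 7.67, 7.59 and 7.61 in DU and 6.98, 7.11 and 7.19 in DT, and it fell in DT vs. DU by 0.53 (adjusted p = 0.0319). Of the collagens, Col1a1 and Col3a1 were lower in all DT than in all DU arrays, by 0.37 and 1.01 in mean, which did not pass the test (adjusted p = 0.226 and 0.106). Their part in the interactions above was not tested.

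Just inside the threshold were Cd24 (adjusted p = 0.0427), Aqp8 (0.0434) and Rnase4 (0.0449), and just outside it were Retsat, a retinol saturase, with -1.38 (adjusted p = 0.0521), Bet1, a vesicle trafficking protein, with 0.66 (0.0603), and Qsox1, an enzyme that forms disulphide bonds, with 0.91 (0.0603). In all 1388 probe sets had an unadjusted p under 0.05. For the called genes with a further probe set, 8 genes with 9 probe sets, 7 had the same sign as the called probe set, 4 had an unadjusted p under 0.05 and none passed the adjustment. The 7 include Gad1 (0.00, SE 0.12) and Hadh (-0.08, SE 0.17), which showed no clear interaction there. The 4 include Ctdspl, with the opposite sign.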

How the data were processed

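Per the labels, RNA of whole pancreas, pooled from several rats per sample, was hybridized to 12 arrays of type RAE230-A (3 per group). The deposited values are log2 intensities that the authors made with RMA, which corrects the background, normalizes by quantiles and summarizes the probes of a probe set. They were used as deposited. Of 15923 probe sets, 57 controls were left out. A model of group means was fitted with limma 3.58.1 in R 4.3.3, on 8 residual degrees of freedom, the interaction was taken as a contrast with empirical Bayes variances, and p-values were adjusted by the Benjamini-Hochberg method over 15866 probe sets. The number of arrays limits the precision. On simulated data with the same probe sets, 94 of 100 interactions of 2-fold and 36 of 100 of 1.5-fold were recovered, with 6 false calls in all. The simulated noise was normal, with limma's variances, and independent between probe sets and arrays. It held no effect of scan day or chip lot, and the change was put into the DT group only. These counts therefore check the fit and do not give the power or the false calls of the real arrays. Genes were named from the platform annotation where a probe set had 1 symbol (12783 probe sets tested, against 312 with several and 2771 with none). List counts took the probe set with the smallest p per gene, and list medians that with the highest mean.

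Named genes were the 15 highest and 15 lowest called interactions with values in every array, the other called genes, the leading genes of each list and the genes the study followed up. Dnajb9, Hadha, Cpt1a, Acsl1 and the probe set without a symbol were named, and array values of Cuzd1, Xbp1, Sel1l, Sdf2l1 and Dpep1 given, after their values were seen. The genes, lists and tests were chosen with earlier results of these data known. Scan days and chip lots were read from the deposited scanner headers. The replicate numbers do not pair the arrays: over 18 same-numbered pairs the correlation of deviations from the group means was -0.29 to 0.31. Alternatives were a further quantile normalization, median centring, dim probe sets (the lowest 25%) left out, trend and robust variances, scan day, chip lot or replicate blocks, a B-statistic above 0 (prior 0.01), a threshold of 0.01, and each array or the 3 arrays of chip lot 3 left out. Promoters came from RefSeq on GRCr8, a build used for these sequences and positions only.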

Additional observations from a re-analysis of the deposited data

Results flagged for a closer look

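The response to tungstate differed between diabetic and healthy rats, by limma's test of the interaction itself, in 59 genes, given here with the interaction on the log2 scale. It was lower in diabetic rats in Tdh (-4.58), Ppcdc (-2.56), Decr1 (-2.27), Txnip (-2.21), Cbr1 (-2.16), Angptl4 (-1.75), Impa2 (-1.56), Ech1 (-1.56), Fbp2 (-1.35), Hadh (-1.31), Gstt3 (-1.28), Acadl (-1.24), Sin3b (-1.15), Coq8a (-1.14), Vnn1 (-1.06), Ehhadh (-0.86), LOC102552398 (-0.85), Cp (-0.81), Stap2 (-0.73), Hadhb (-0.71), Pebp1 (-0.67) and Pan3 (-0.66). It was higher in diabetic rats in Amy2a3 (5.15), Tff2 (4.95), Amy1 (4.58), Herc4 (2.97), Mug1 (1.62), C2cd4b (1.62), Tspan8 (1.55), Cd24 (1.53), Ang (1.52), Cyp2d2 (1.48), Anpep (1.40), Sat1 (1.37), Fcgbp (1.33), Aqp8 (1.32), C1galt1c1 (1.12), Sostdc1 (1.10), Sel1l (1.09), Tc2n (1.07), Rnase4 (1.05), Acy3 (1.03), Gstp1 (1.03) and Tgfb3 (1.02), and by less than 1 in Slc39a8 (0.94), Gad1 (0.92), Sdf2l1 (0.88), Xbp1 (0.88), Pls1 (0.81), Nr0b2 (0.78), Cuzd1 (0.77), S1pr5 (0.77), Ctdspl (0.76), Dram1 (0.75), Htr1d (0.74), Slc25a5 (0.74), Dpep1 (0.72), Proc (0.72) and Mrpl28 (0.65). Groups of 3 arrays are too small for a test of a single array far from the others.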

How the results depend on the processing

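The interaction calls numbered 67, with 43 higher and 24 lower. With a further quantile normalization there were 58, with median centring 60, without dim probe sets 70, with trend and robust variances 67, and 64 with blocking by chip lot. With the scan day as a block, on 3 residual degrees of freedom, there were 37, with 22 higher and 15 lower, and 24 of them were among the 67. At an adjusted p under 0.01 there were 29, with 16 higher and 13 lower. Without the 3 arrays of chip lot 3 there were 83, with 38 lower. Leaving out 1 array at a time gave 32 (without HU1) to 89 (without DT3) in all, 18 to 52 higher and 14 to 37 lower. With the replicate block, although the numbers do not pair the arrays, there were 75, of which 59 were among the 67, and 6 of 12 arrays correlated best with their own number. No interaction of a called probe set changed sign, in fits that reuse arrays on which the calls were made. For single genes and lists, 3445 values kept their side of the threshold or their size, 327 fell short of the threshold, 28 newly passed it and 232 moved. The cause of the changes was not tested. With 3 arrays per group precision is low, and levels near the lowest on an array (Mug1, Gad1, Ehhadh, Vnn1 and Amy1 in the DU group) are the least certain.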
